A study of Mus musculus with 4 samples.

Results

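The genes described here are 28 genes of cholesterol synthesis, cholesterol handling and sterol sensing, measured in hair follicle stem cells (HF-SCs) of mouse back skin. They were selected on a measured value, a mean normalized count above 0 over 4 bulk RNA-seq libraries, in a table of 24421 genes of which 17044 were above 0. All 28 listed genes passed, and the lowest of them, *Tmem97*, had a mean of 84.2, so none lay near the threshold. Because this mean chose the genes, their levels are given as a description with no test. The set was ordered by pathway step, from the mevalonate enzymes through squalene and lanosterol to cholesterol, and then by sensing and by transport and storage.

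Cells make cholesterol from acetyl-CoA through mevalonate, isoprenoids, squalene and lanosterol. SREBP2, encoded by *Srebf2*, is the transcription factor that drives the genes of this route. It is held in the endoplasmic reticulum with its escort SCAP by INSIG proteins when sterol is plentiful, and it is released to the nucleus when sterol is scarce. In skin, cholesterol is a component of the permeability barrier and of sebum, and isoprenoids from the same route modify small GTPases. *miR-205* is a microRNA that is abundant in skin epithelium.

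There were 2 groups with 2 libraries each, labeled 2-day Ctrl and 2-day miR-205 inducible, in mice whose strain is given as C57BL/6. The inducible mice carried a *miR-205* transgene switched on through a *Krt14*-driven rtTA, which is active in the basal epithelium and not in HF-SCs alone, and mice of both groups carried a *K14-H2BGFP* allele. Doxycycline chow was given from postnatal day 42 to day 44. The labels describe control mice as untreated, whereas the extraction protocol has both groups fed doxycycline. Live cells were sorted as H2BGFP-high, Sca1-negative, α6-high and CD34-high, so that 2 of the HF-SC markers, *Itga6* and *Cd34*, were part of the sort. The H2BGFP signal comes from a *K14* reporter, so another listed marker, *Krt14*, was tied to the sort as well. The labels do not say whether libraries came from separate mice or pools.

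The study compared induced with control HF-SCs, but no such comparison is given here. The authors' columns for that contrast were not used, and the remaining column is 1 mean per gene over all 4 libraries, with no value per library and no stated depth. For genes with a mean under 1000, however, sets of 4 whole read counts that give the digits of the mean were searched. Exactly 1 set was found for 17 of the 28 genes, and these counts were used. The libraries are named A to D from the deepest to the shallowest, with relative depths of 1.24, 1.18, 0.966 and 0.716. Which of A to D were control and which were induced was not assigned, because neither the labels nor the column used tells. Library values are therefore given singly, with no mean, no SD and no test between them. The remaining 11 genes, all with a mean above 1000, are described by the mean over the libraries alone.

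A normalized count is the number of reads of a gene divided by the size factor of the library, and levels of different genes are compared only per kilobase of the longest annotated transcript. Percentiles give the place of a level among 15505 protein-coding genes with a mean above 0. The 10 HF-SC markers had a median of 2194 normalized counts per kilobase, at percentile 98.0. The keratin genes *Krt15*, *Krt14* and *Krt5* had means of 119883, 90971 and 146090 normalized counts, and *Cd34* had 14575. Markers of other skin cells were also present, and none of the 27 was at 0. The median level per kilobase lay at percentile 92.2 for 4 suprabasal markers and at percentile 86.4 for 6 sebaceous gland markers. It lay at percentile 92.5 for 5 fibroblast, 72.1 for 5 myeloid, 51.5 for 4 melanocyte and 26.8 for 3 endothelial markers. Single markers could lie far from the median of their list. The fibroblast genes *Col1a1*, *Col1a2* and *Col3a1* lay at percentiles 94.8, 94.8 and 92.5, but *Lum* at 57.5 and *Pdgfra* at 25.0. Of the suprabasal genes, *Krt10* lay at 98.6 and *Ivl* at 52.1. In bulk RNA, fewer cells of a type and less RNA per cell cannot be told apart, and this holds for every level below.

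*miR-205* acts through pairing of its seed, bases 2 to 8, with sites that lie mostly in 3′UTRs. The mature *miR-205-5p* of RefSeq (GRCm38.p6, chr1:193507503-193507524, minus strand, 22 nt) is shown because it sets the letters that were searched, with the seed in capitals.
mmu-miR-205-5p: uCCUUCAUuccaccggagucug
The complement of this seed, ATGAAGG, was present in the longest annotated 3′UTR of 4 of the 27 genes with an annotated transcript, or 14.8%. Of all 15271 genes with a mean above 0 and a 3′UTR, 1795 held it, or 11.8%. The 4 genes were *Sqle*, the squalene epoxidase, *Sc5d*, a late desaturase of the sterol ring, *Srebf2* and *Stard4*, a cytosolic sterol carrier. In *Stard4* the match starts at base 1257 of a 3′UTR of 4231 bases and is followed by an A, which makes it the only 8-base match among the genes. The other 3 sites are shown, each within 30 bases of its 3′UTR on the strand of the transcript (NCBIM37, GENCODE vM1), with the match in capitals.
Sqle, chr15:59162601-59162630, plus strand: tacagttgaaaATGAAGGtcagagaagcta
Sc5d, chr9:42062425-42062454, minus strand: acttttttttaATGAAGGgaataattgcca
Srebf2, chr15:82034456-82034485, plus strand: gagctgtgaggATGAAGGcaagactgattg
Each of these lies in the last exon, which is exon 11 of 11 in *Sqle*, exon 6 of 6 in *Sc5d* and exon 19 of 19 in *Srebf2*. The match starts at base 140 of 275 in the 3′UTR of *Sqle*, at base 982 of 1165 in *Sc5d* and at base 120 of 1459 in *Srebf2*. A match is a description of letters, and binding at these sites was not measured in the libraries.

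The genes also share a feature upstream of their starts. RefSeq promoters (GRCm38.p6, from 250 bases before to 50 bases after the start) were present for 23 of the 28 genes. They were present for 12514 genes with a mean above 0 in all. A gene was counted where any of its listed promoters held a match. Those without an entry were *Fdps*, *Fdft1*, *Sqle*, *Stard4* and *Npc1*. Both strands were searched for CCAAT, the letters bound by NF-Y, for GGGCGG, the GC box bound by SP1, and for TCACNCCAC, the classical sterol regulatory element bound by SREBPs. A CCAAT was found for 21 of the 23 genes, or 91.3%, against 41.7% of all genes with a promoter. A GC box was likewise found for 21, against 63.0% of all. Both motifs were found for 19 of the 23, or 82.6%, against 26.6% of all. The reference holds genes of any mean above 0, whereas the 28 genes had means of 84.2 or more. The share among genes of like level was not computed. The genes without a CCAAT were *Acat2* and *Scap*, and those without a GC box were *Pmvk* and *Ggps1*. *Dhcr7* and *Insig2* held a CCAAT only in a promoter other than the first by genome coordinate among those with a match. A full sterol regulatory element was found for 1 gene, *Hmgcs1*, or 4.35%, against 1.50% of all. With 1 mismatch allowed, it was found for 10 of the 23, or 43.5%, against 29.1% of all. These were *Acat2*, *Hmgcs1*, *Cyp51*, *Msmo1*, *Nsdhl*, *Hsd17b7*, *Dhcr7*, *Srebf2*, *Insig1* and *Insig2*.

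The 250 bases before the start are shown for 4 genes, with full motif matches on either strand in capitals. Sterol elements with 1 mismatch are not marked. *Hmgcs1* is shown for its full sterol element, *Srebf2* and *Insig1* as sensing genes without the full element, and *Acat2* as a synthesis gene without a CCAAT.
Hmgcs1, chr13:119690101-119690350, plus strand: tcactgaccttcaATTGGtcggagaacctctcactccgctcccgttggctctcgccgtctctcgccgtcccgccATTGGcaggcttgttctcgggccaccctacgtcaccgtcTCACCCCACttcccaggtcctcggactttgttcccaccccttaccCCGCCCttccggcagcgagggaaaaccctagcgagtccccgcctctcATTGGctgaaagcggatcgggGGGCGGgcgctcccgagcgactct
Srebf2, chr15:82147019-82147268, plus strand: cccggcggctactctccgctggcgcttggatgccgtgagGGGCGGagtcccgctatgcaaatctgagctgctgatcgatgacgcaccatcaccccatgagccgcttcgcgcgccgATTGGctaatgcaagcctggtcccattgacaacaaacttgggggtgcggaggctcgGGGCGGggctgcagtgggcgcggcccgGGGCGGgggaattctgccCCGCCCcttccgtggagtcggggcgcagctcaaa
Insig1, chr5:28071162-28071411, plus strand: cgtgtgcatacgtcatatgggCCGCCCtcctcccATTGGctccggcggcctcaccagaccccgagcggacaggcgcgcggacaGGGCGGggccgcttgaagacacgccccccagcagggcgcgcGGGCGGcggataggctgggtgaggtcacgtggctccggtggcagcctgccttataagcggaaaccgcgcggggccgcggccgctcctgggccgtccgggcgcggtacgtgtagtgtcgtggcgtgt
Acat2, chr17:12960726-12960975, minus strand: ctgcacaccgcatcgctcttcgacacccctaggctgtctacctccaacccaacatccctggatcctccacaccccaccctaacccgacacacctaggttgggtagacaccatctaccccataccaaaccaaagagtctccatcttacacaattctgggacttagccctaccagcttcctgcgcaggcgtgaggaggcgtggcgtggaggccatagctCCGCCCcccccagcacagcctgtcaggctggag
The *Hmgcs1* stretch holds 3 CCAAT, which read here as the reverse complement ATTGG, 1 sterol element that starts 137 bases before the start, and 2 GC boxes. *Srebf2* holds 1 CCAAT and 4 GC boxes, *Insig1* holds 1 and 3, and *Acat2* holds 1 GC box. Over all promoters of the genes there were 45 CCAAT matches, with a median of 55 bases before the start, and 13 genes had 2 or more. There were 48 GC box matches, with a median of 95 bases before the start, and 14 genes had 2 or more. Matches were counted per promoter, so a site in overlapping promoters, as in *Scap*, counts more than once.

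**Figure D1:**
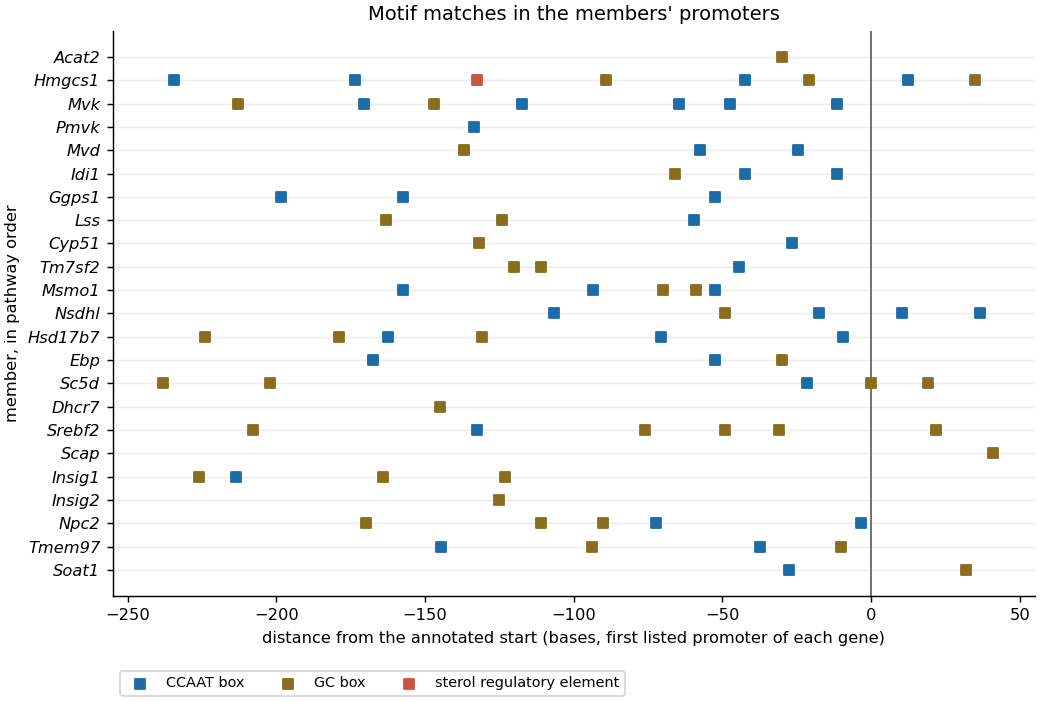
Positions of CCAAT, GC box and sterol regulatory element matches on either strand in the first listed promoter of each of 23 genes, with the distance from the annotated start in bases on the x axis and the genes in pathway order on the y axis. The full sterol element appears in *Hmgcs1* alone, and elements with 1 mismatch were not drawn. Promoters without a match were not drawn, so a match in every promoter shown follows from the choice.

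The enzymes of the mevalonate and isoprenoid steps were expressed at very different levels. *Hmgcs1*, the synthase that makes HMG-CoA, had a mean of 3101 normalized counts, at percentile 95.3 of the means of all genes. It has no transcript length in the annotation used, so it could not be placed per kilobase. For the other 7 enzymes the median was 107 normalized counts per kilobase, at percentile 63.7. *Idi1*, which isomerizes the isoprenoid building block, had 515, followed by *Fdps*, which makes farnesyl diphosphate, with 470.0. *Pmvk*, the second kinase acting on mevalonate, had 288 per kilobase. *Acat2*, the cytosolic thiolase at the start of the route, had 107, and *Mvk*, the kinase that phosphorylates mevalonate, had 94.2. *Mvd*, the decarboxylase just before *Idi1*, had 83.0, so that the level of *Idi1* was 6.21 times that of *Mvd*. *Ggps1*, which extends farnesyl diphosphate for protein prenylation, had 78.6, and *Fdps* was 5.98 times as high.

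The 3 enzymes from farnesyl diphosphate to lanosterol included the gene with the most counts per kilobase of the longest transcript. *Sqle*, the epoxidase that adds oxygen to squalene, had 1228 normalized counts per kilobase, at percentile 96.5. *Fdft1*, the squalene synthase, had 432, at percentile 89.3. *Lss*, the cyclase that closes the sterol ring, had 96.9, at percentile 61.4. The level of *Sqle* was 2.84 times that of *Fdft1* before it and 12.7 times that of *Lss* after it. With the shortest transcript as the length, however, *Lss* lay at percentile 90.1, above *Sqle* at 88.9, and *Scap*, *Msmo1* and *Insig2* lay above *Sqle* as well. With the mean not divided by length, *Srebf2* at percentile 95.9 lay just above *Sqle* at 95.8.

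The 8 enzymes from lanosterol to cholesterol had a median of 147 normalized counts per kilobase, at percentile 70.6, and spanned 40.8 to 568. *Msmo1*, the methyl oxidase that removes the methyl groups at carbon 4 of the sterol, had 568. *Cyp51*, the lanosterol demethylase, had 332, or 0.585 times the level of *Msmo1*, but 1.13 times its mean when length was not divided out. *Ebp*, which moves a double bond in the sterol ring, had 218, and *Dhcr7*, the reductase that makes cholesterol from 7-dehydrocholesterol, had 193. *Sc5d* had 101, and *Nsdhl*, a dehydrogenase that works with *Msmo1*, had 82.1. *Tm7sf2*, a reductase that acts right after *Cyp51*, had 65.6, and *Cyp51* was 5.07 times as high. *Hsd17b7*, the ketoreductase of the demethylation complex, had 40.8, at percentile 45.1. The 3 enzymes of the same demethylation complex, *Msmo1*, *Nsdhl* and *Hsd17b7*, thus lay at percentiles 91.9, 58.0 and 45.1, or at 95.6, 46.7 and 54.2 with the shortest transcript.

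All 4 sensing genes were above the third quartile of all genes, which was 183 normalized counts per kilobase. *Srebf2* had 692, at percentile 93.4, and *Scap* had 474, at percentile 90.3. *Insig1*, itself a known target of SREBPs, had 429.7, and *Insig2*, its paralog, had 229, so that *Insig1* was 1.88 times as high. *Srebf2* was 1.46 times as high as *Scap*. Both orders turned with the shortest transcript, where *Insig2* lay at percentile 95.1 and *Insig1* at 75.2, and *Scap* at 97.5 and *Srebf2* at 86.5. The median of the stage, 452 per kilobase, lay at percentile 89.7.

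Of the 5 genes of transport and storage, the pair that moves cholesterol out of lysosomes was high. *Npc2*, the soluble sterol-binding protein of the lysosome, had 644 normalized counts per kilobase, at percentile 92.9, and *Npc1*, its membrane partner, had 378, at percentile 87.6. The other 3 lay near the median of all genes, which was 54.9. *Tmem97*, a membrane protein of the endoplasmic reticulum and lysosome that binds NPC1, had 61.3. *Soat1*, which esterifies cholesterol for storage, had 60.9, and *Stard4* had 54.8, although *Stard4* lay at percentile 75.3 with the shortest transcript. *Npc2* was 10.5 times as high as *Tmem97*, a larger span than the 1.71 between *Npc2* and *Npc1*.

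Over the 27 genes with a length, the median was 218 normalized counts per kilobase, at percentile 78.5, and the highest was 30.1 times the lowest. Above the median of all genes lay 25 of the 27, with *Stard4* and *Hsd17b7* under it, and 15 lay above the third quartile. The 7 above the 90th percentile, which was 462, were *Sqle*, *Srebf2*, *Npc2*, *Msmo1*, *Idi1*, *Scap* and *Fdps*. These 7 come from every stage of the set. The genes past these limits change with the reference and with the length. Among the 10103 genes with a mean over 50 and a length, *Dhcr7*, at rank 15 of the 27, lay at percentile 63.1. *Acat2*, at rank 16, lay at 44.3, and all genes ranked after it lay under the median as well, down to *Hsd17b7* at 16.3. With the shortest transcript *Mvd*, *Nsdhl*, *Tmem97* and *Soat1* were the 4 under the median, 16 genes were above the third quartile, and *Msmo1*, *Scap*, *Insig2* and *Lss* were the 4 above the 90th percentile. With the mean not divided by length, *Mvd*, *Tm7sf2* and *Tmem97* were the 3 under the median, 12 were above the third quartile, and *Sqle*, *Srebf2*, *Npc2*, *Scap* and *Npc1* were the 5 above the 90th percentile. A mean over the libraries carries no spread, so neighbors in this order cannot be told apart by it.

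**Figure D2:**
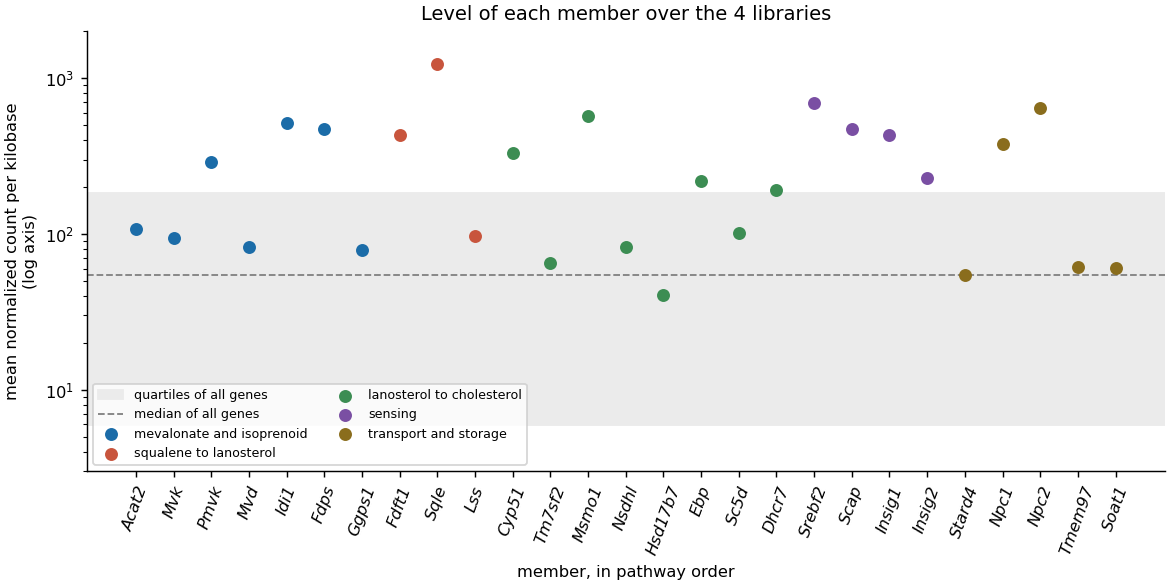
Mean normalized count per kilobase of the longest transcript over the 4 libraries (log y axis) for the 27 genes with a length, in pathway order along the x axis and colored by stage. The gray band spans the quartiles of all genes, 5.99 to 183, with their median of 54.9 dashed; *Sqle* is the highest point at 1228 and *Hsd17b7* the lowest at 40.8.

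Other genes of sterol metabolism, taken from a list of 28, spanned a wider range of levels, from 0.604 to 650.03 normalized counts per kilobase. Of these, 27 had a mean above 0, 1 was not matched to the table, and 24 had a mean over 50. Their median was 169 normalized counts per kilobase, at percentile 73.3, with 18 of the 27 above the median of all genes. *Mbtps1*, the first protease that cuts SREBPs in the Golgi, had 297 per kilobase, and *Mbtps2*, the second protease, had 32.7. *Srebf1*, which encodes the SREBPs of fatty acid synthesis, had 238, against the 692 of *Srebf2*. *Lbr*, a nuclear envelope protein with the same reductase activity as *Tm7sf2*, had 208. *Gramd1a*, which carries cholesterol from the plasma membrane to the endoplasmic reticulum, had 411. *Soat2*, the intestinal and hepatic counterpart of *Soat1*, had 0.604, and *Npc1l1*, the intestinal cholesterol importer, had a mean of 6.43 normalized counts.

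The library counts could be read for 17 genes, with 336 to 2553 reads behind each. Intervals given with them are 95% Poisson intervals, which cover counting error only. The ratio of the highest to the lowest library had a median of 1.43 over the 17 genes. Over the 5540 genes of the same range of means whose counts were found, the median ratio was 1.31, with quartiles of 1.20 and 1.46, and 8 of the 17 genes lay above the third quartile. The intervals of the highest and the lowest library did not overlap in 11 of the 17 genes, against 51.8% of all genes in this range.

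*Stard4* varied the most. Its normalized counts were 349 in library A (interval 316 to 383), 174 in B (151 to 199), 168 in C (143 to 196) and 427 in D (381 to 478). Libraries A and D were high, B and C were low, and the intervals of the high and low libraries did not overlap. The ratio of D to C was 2.55, at percentile 97.9 of all genes in the range. *Soat1* came next, with 230.5 in A, 411 in B, 329 in C and 195 in D. Here B and C were the high libraries, the reverse of *Stard4*, and the ratio of B to D was 2.11, at percentile 95.9. *Tmem97*, the gene with the fewest reads, had 80.9, 67.9, 84.9 and 103 from A to D, and its highest and lowest intervals overlapped.

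Among the mevalonate and isoprenoid enzymes, *Pmvk* varied the most, with 377 in A, 255 in B, 304 in C and 441 in D, a ratio of 1.73 at percentile 90.3. *Fdps* had 616 in A, 438 in B, 558 in C and 706 in D, a ratio of 1.61. *Mvd* had 147 in A, 107 in B, 161 in C and 169 in D, a ratio of 1.58. In these 3 genes library B was the lowest and D the highest, and the intervals of B and D did not overlap. *Acat2*, *Mvk* and *Ggps1* varied less, with ratios of 1.26, 1.28 and 1.28 and overlapping intervals. *Acat2* had 277, 235, 219 and 235 from A to D. *Mvk* had 149, 178, 169 and 139.6, and *Ggps1* had 208, 194, 180.1 and 162.

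Of the squalene enzymes only *Lss* had a mean low enough, with 505 in A, 377 in B, 403 in C and 523 in D. Again A and D were the higher libraries, and the ratio was 1.39. Among the later enzymes, *Dhcr7* had 579 in A, 416 in B, 593 in C and 581 in D, so that B stood apart from 3 libraries of nearly the same level. *Tm7sf2* had 84.9, 129.8, 77.6 and 101 from A to D, and B was its highest library. *Hsd17b7* had 197 in A, 175 in B, 154 in C and 228 in D, and *Sc5d* had 240.2, 188, 213 and 267. Both were highest in D, with ratios of 1.48 and 1.42. *Nsdhl* had 184, 185, 153 and 189.9, with overlapping intervals. *Ebp* was the most even of the 17, with 353, 385, 392 and 389 from A to D and a ratio of 1.11, at percentile 7.17. *Insig2*, the sensing gene that could be read, had 674 in A, 639.6 in B, 543 in C and 614 in D, a ratio of 1.24.

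**Figure D3:**
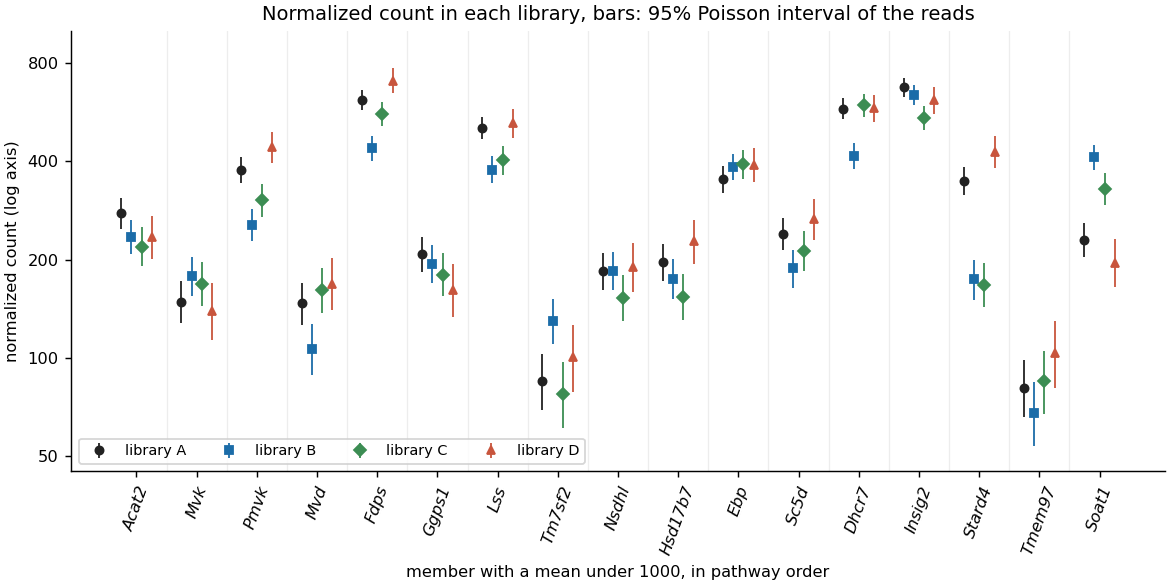
Normalized counts of 17 genes in libraries A to D (log y axis) with 95% Poisson intervals of the reads as bars, in pathway order along the x axis. *Stard4* is split between A and D at 349 and 427 and B and C at 174 and 168, whereas the 4 libraries of *Ebp* lie between 353 and 392.

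**Figure D4:**
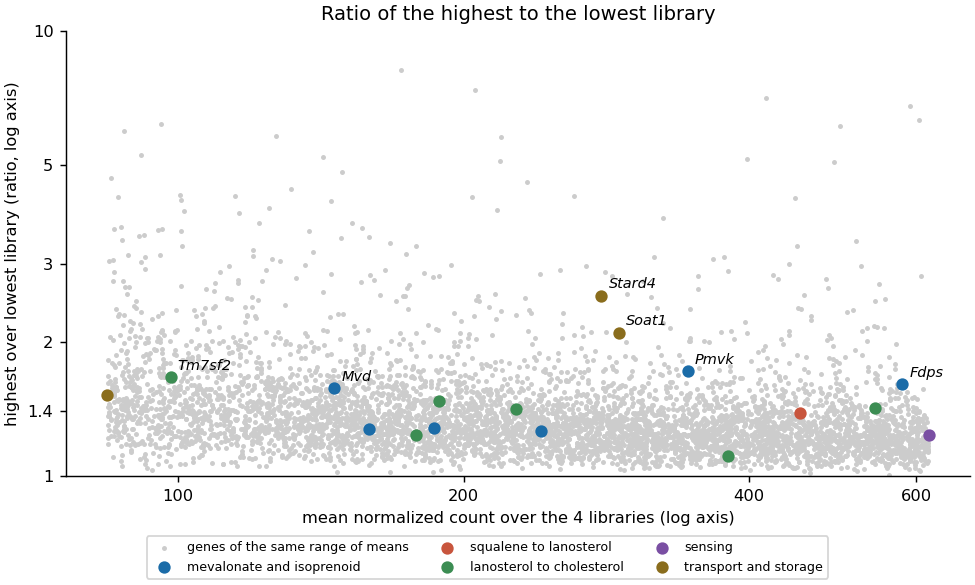
Ratio of the highest to the lowest library (log y axis) against the mean normalized count (log x axis) for the 17 genes, colored by stage, and for genes of the same range of means in gray. *Stard4* at 2.55 and *Soat1* at 2.11 lie highest among the 17, and *Ebp* at 1.11 lies lowest.

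Summed over the 17 genes, the normalized counts were 5251 in A, 4556 in B, 4702 in C and 5471 in D, so that the highest library had 1.20 times the lowest. The 19 other sterol genes that could be read summed to 6462, 6805, 6999 and 6447, a ratio of 1.09. Of these, *Vldlr*, a lipoprotein receptor, varied the most among genes with a mean over 50, with 234 in A, 89.9 in B, 196 in C and 413 in D, a ratio of 4.60. *Lbr* had 908 in A, 683 in B, 538 in C and 825 in D, and *Lipa*, the lysosomal lipase that frees cholesterol from its esters, had 129, 242, 189 and 197. *Erlin1*, a sterol-binding scaffold of the endoplasmic reticulum, had a ratio of 1.15.

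Markers of other cell types differed more between libraries than these sums. The 4 melanocyte markers summed to 604 in A, 568 in B, 1593 in C and 258 in D, a ratio of 6.17. Suprabasal markers, *Lor* and *Ivl*, summed to 538, 736, 1337 and 267 in the same order, a ratio of 5.01. The 4 myeloid markers summed to 689.8, 1339, 1148 and 637, the 3 endothelial markers to 92.2, 91.6, 113 and 39.1, and the fibroblast markers *Lum* and *Pdgfra* to 218, 183, 279 and 148. The 5 sebaceous gland markers, a lipid-making cell type, summed to 2366, 2289, 2729 and 1621. Library D had the lowest sum for all 6 of these lists, and C had the highest for all except the myeloid one, where B did. Single markers did not all follow. *Mgst1* and *Dgat2* had 605 and 818 in A against 417 and 741 in C, whereas *Plin2*, *Awat2* and *Elovl3* were highest in C. *Cdh5* was highest in A. *Pdgfra* and *Cd207* were lowest in B, and *Lyz2* and *Ptprc* in A, while the other markers that could be read were lowest in D. Library D was the highest for the sum of the 17 cholesterol genes. It was also the highest for the 1 HF-SC marker that could be read, *Tcf7l1*, with 518 in A, 569 in B, 604 in C and 670.1 in D. The part of these cells in the levels of single genes was not tested.

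**Figure D5:**
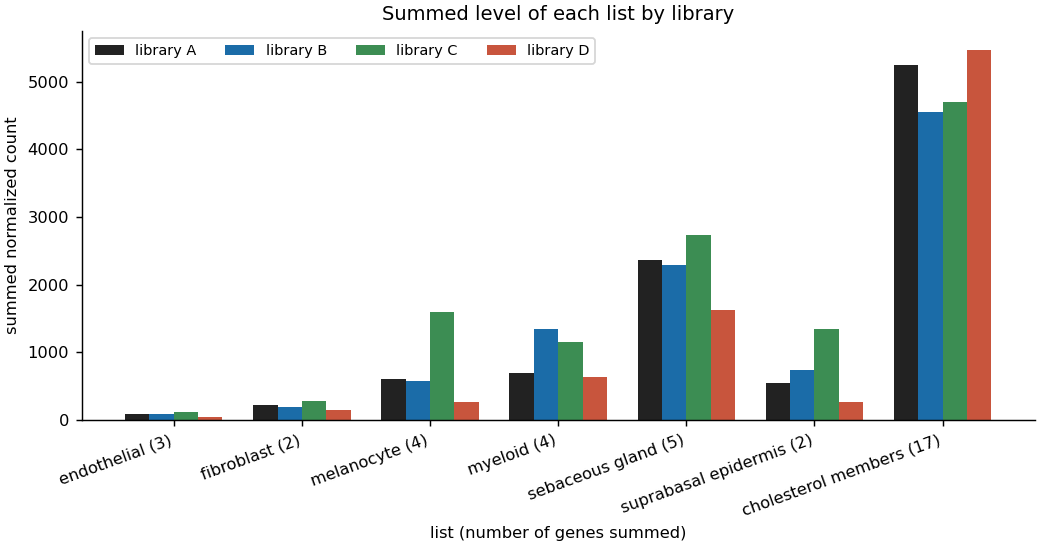
Summed normalized counts (y axis) of the markers of 6 other cell types and of the 17 cholesterol genes in libraries A to D, with the number of genes summed in parentheses. Melanocyte markers range from 258 in D to 1593 in C, and the cholesterol genes from 4556 in B to 5471 in D.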

How the data were processed

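RNA-seq was done on sorted HF-SCs from 2 groups of 2 libraries. Paired-end reads of 150 nt were mapped by the authors (Hisat2 2.1.0, then SAMtools 1.3.1 for file conversion), and gene counts from HTSeq went into DESeq2. The genome is named as mm10, and the sources used here do not give the annotation, the use of strand or the versions of the last pair of tools. The deposited table holds a signal, the mean normalized count that the authors took over all 4 libraries. Its other 5 columns hold the authors' own comparison (fold change, standard error, Wald statistic, p and adjusted p) and were not used. There were 0 columns with values per sample, and 0 comparisons between groups were made. Genes that share reads with a near-identical or overlapping gene could not be separated.

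Levels were divided by the length of the longest protein-coding transcript (GENCODE vM1, 26 of the 28 genes matched by symbol and 1 by synonym). The recovery of library counts was chosen after the table was seen and is not part of the planned design. Genes with 1 read in 1 library fall on 4 values, 232, 143, 187 and 138 of them from A to D, which give the 4 size factors. For each mean under 1000, sets of 4 whole counts were searched that give it within 1e-12. Exactly 1 set was found for 17 of the 28 genes and for 99.9% of 5544 genes in the same range. For the 17 genes every set was searched. For the 5544 genes, and for most listed genes outside the 28, the search was limited to library values within a set span around the mean. The limit of 1000 was set by hand after trial searches and leaves out the other 11 genes. Size factors computed again from recovered reads differed by -2.24% to 1.50%. Tested on simulated data, 100% of 200 sets were recovered, and 1% of means shifted to be impossible gave a set. The simulated data were drawn for genes with means of 84.2 to 618 and built from the fitted size factors. Errors in these factors and listed genes with higher means, such as *Plin2*, were therefore not tested.

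The genes named are all 28 genes, a list of other sterol genes and lists of cell type markers. These genes and lists were chosen with earlier results of these data known. Some items that are withheld are left out. Seed matches and motifs were counted as letters beside their share of all genes. Another spelling of the sterol element was looked at and not used. Alternatives were other minimum means, the mean without length, the shortest transcript, other seed lengths, the shortest 3′UTR and 1 mismatch. A doubled tolerance and leaving out each library were added after the values were seen. Computation was done in Python 3.11.15 with matplotlib 3.10.9 and scipy 1.17.1, numpy 2.4.6 and, for tables, pandas 2.3.3.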

Additional observations from a re-analysis of the deposited data

How the results depend on the processing

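All 28 genes had a mean over 50, and 21 had a mean over 200. The percentile of each stage's median level moved with the length used, and the cause was not tested. With the mean not divided by length it was 62.2 for the mevalonate and isoprenoid stage, 87.4 for squalene to lanosterol, 62.9 for lanosterol to cholesterol, 90.3 for sensing and 62.1 for transport and storage. The 62.2 includes *Hmgcs1*, which has no length and is left out of the other values of that stage. With the shortest transcript, the median of the genes' percentiles was 61.9, 88.9, 64.7, 90.8 and 75.3 in the same order. This measure can differ from the percentile of the median in the stages with an even number of genes, lanosterol to cholesterol and sensing. Transport and storage moved the most, from 52.1. Among genes with a mean over 50, each of the 27 genes ranked lower, by a median shift of -11.5 percentile points. The number of genes with a seed match was 4, against 12 with a 6-base match, 1 with an 8-base match and 2 in the shortest 3′UTR, and the share of all genes moved in the same direction, to 36.6%, 4.25% and 6.48%. The number with a sterol element was 1, against 10 with 1 mismatch. With the tolerance doubled the counts of 17 genes were found, as before. The median level of these 17 genes was 242, and 229.6 to 249 with each library left out in turn. No paired analysis was possible because the values used carry no replicate number. The means carry no spread, and 11 genes, *Sqle*, *Hmgcs1* and *Srebf2* among them, have no library values.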

Other observations

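In 6 of the 17 genes with library counts, *Pmvk*, *Fdps*, *Lss*, *Hsd17b7*, *Sc5d* and *Stard4*, the highest values were those of libraries A and D. This held for 18.2% of all genes in the same range of means, or 1006 genes. A and D were the most frequent pair among these same 17 genes and were not planned. The share over all genes was computed for this pair alone, so setting these shares side by side is no test. The highest values were those of C and D in *Mvd*, *Ebp*, *Dhcr7* and *Tmem97*. They were those of A and B in *Acat2*, *Ggps1* and *Insig2*, and of B and D in *Tm7sf2* and *Nsdhl*. Of the 6 genes, *Sc5d* had 240.2 normalized counts in A and 267 in D, against 188 in B and 213 in C. *Hsd17b7* had 197 and 228 against 175 and 154. *Soat1* had the opposite order, with 411 in B and 329 in C against 230.5 in A and 195 in D, and *Mvk* had 178 and 169 against 149 and 139.6. Since the libraries carry no group here, these are values of single libraries and no difference between groups.

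Of the 4 myeloid markers that could be read, *Lyz2*, *Ptprc* and *Csf1r* were higher in B and C as well, and *Cd207* was not. *Lyz2* had 769 in B and 523 in C against 234 in A and 272 in D, and *Ptprc* had 132 and 99.3 against 57.4 and 61.4. *Csf1r* had 249 and 202 against 143 and 97.7. *Cd207* had 256 in A, 189 in B, 324 in C and 205 in D. Markers of other cell types were higher in B and C too, namely *Plin2*, *Awat2*, *Elovl3*, *Lor*, *Dct*, *Tyr* and *Pecam1*. *Lor*, for example, had 623 in B and 1183 in C against 422 in A and 187 in D. *Mgst1*, *Dgat2*, *Ivl*, *Pmel*, *Mlana*, *Cdh5*, *Kdr*, *Pdgfra* and *Lum* did not have this order. The order is thus not particular to the myeloid markers. The part of any of these cell types in the levels of *Soat1* was not tested.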
